A study of Rattus norvegicus with 44 samples.

Results

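Messenger RNA of the 8 genes Cacna1a, Cacna1b, Cacna1c, Cacna1d, Cacna1e, Cacna1g, Cacna1h and Cacna1i was followed in 2 parts of the rat hippocampus. Each gene encodes an alpha1 subunit, the pore of a voltage-gated calcium channel. They were found by symbol and make up 8 of the 20003 rows deposited for CA1 and 8 of the 20050 rows for the dentate gyrus (DG). Polyadenylated RNA was sequenced from CA1 and DG of 1 hippocampus from each of 22 male rats, which gave 44 libraries. Young LPS rats (n = 8) were 5 to 7 months old and received lipopolysaccharide, a bacterial cell wall component that provokes inflammation, at 1 mg per kg into the peritoneum. Aged vehicle rats (n = 6) were 14 to 16 months old and received saline by the same route. Young vehicle rats (n = 8), 5 to 7 months old, also received saline. All groups were injected weekly for 7 weeks and sampled 48 hours after the last injection. The rats' strain is not given in the sources used here.

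The alpha1 subunit senses the membrane voltage and carries the calcium current, while beta and alpha2delta subunits bring the channel to the membrane and tune its gating. L-type channels (Cacna1c, Cacna1d) sit on cell bodies and dendrites, couple firing to gene transcription and feed the slow afterhyperpolarization. The P/Q type (Cacna1a) and N type (Cacna1b) trigger transmitter release at terminals, and the R type (Cacna1e) acts in dendrites, spines and terminals. T-type channels (Cacna1g, Cacna1h, Cacna1i) open near the resting potential and support burst firing. In CA1 pyramidal neurons of aged rodents, larger L-type currents are a known feature of electrophysiological studies.

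The libraries held between 12292346 and 18749663 reads in CA1 and between 12130182 and 23519791 in DG, as recovered from the deposited values. Between 425 and 7409 reads fell on a member in a library, so counting error is small beside the differences between rats. The region labels were checked with markers. All 6 CA1 pyramidal markers were higher in CA1 than in DG (median log2 difference 2.77) and all 5 granule cell markers were lower (-1.41). A dissection score, the mean log2 value of the CA1 pyramidal markers minus that of the granule cell markers, ran from 1.92 to 5.20 in CA1 libraries and from -3.47 to 0.45 in DG libraries, where 5 of 22 lay above 0. The summed level of the CA1 pyramidal markers in DG libraries ran from 1188 to 15970 normalized reads, against 23550 to 57190 in CA1. Bulk tissue cannot tell fewer cells of a type from less RNA per cell.

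Cacna1c and Cacna1d, the L-type pair, had the largest differences between regions of the 8 genes, and their promoters are shown because both were lower in CA1 than in DG of every rat. RefSeq's table for build GRCr8 holds a promoter for 5 of the 8 genes (Cacna1a, Cacna1b, Cacna1c, Cacna1d, Cacna1e). The 250 bases before the annotated start lie on the minus strand at chr4:154051749-154051998 for Cacna1c and at chr16:5527550-5527799 for Cacna1d, and are printed 5′ to 3′. Capitals mark the letters GGGCGG, known as a GC box, and TGACG, the core of the cAMP response element, each searched on both strands, with overlapping matches counted.
Cacna1c: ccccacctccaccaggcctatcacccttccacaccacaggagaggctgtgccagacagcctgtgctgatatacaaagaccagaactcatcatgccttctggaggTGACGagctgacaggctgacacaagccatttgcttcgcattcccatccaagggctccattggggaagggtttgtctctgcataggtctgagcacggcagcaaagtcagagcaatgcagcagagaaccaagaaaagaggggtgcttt
Cacna1d: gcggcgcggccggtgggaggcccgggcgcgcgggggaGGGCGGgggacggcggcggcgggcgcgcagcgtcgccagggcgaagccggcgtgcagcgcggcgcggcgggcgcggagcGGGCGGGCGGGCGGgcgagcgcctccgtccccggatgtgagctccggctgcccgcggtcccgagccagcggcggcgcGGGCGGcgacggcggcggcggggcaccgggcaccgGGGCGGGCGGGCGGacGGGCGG

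The promoter windows of these L-type genes have little in common in sequence. The Cacna1d window is 88.8% G and C, with 56 CpG dinucleotides and 9 GC box matches. The Cacna1c window is 54.4% G and C, with 3 CpG dinucleotides, no GC box match and 1 TGACG match. Among all 33469 windows in the table the median G and C content is 51.2%, a GC box is present in 30.5% and TGACG in 18.2%. The windows of Cacna1a (76.8% G and C, 1 GC box match) and Cacna1b (72.0%, 3 matches) are also rich in G and C, and that of Cacna1e is not (51.2%, 0 matches). TGACG has 1 match in the Cacna1b window too, and 0 in those of Cacna1a, Cacna1d and Cacna1e. A match is a description of letters only.

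CA1 and DG of the same rats were compared first. Levels were taken as RPM, the reads of a gene scaled to the same total in each library over the 19882 rows shared by both tables, since no source used here says that the tables share a normalization. All 8 genes differed between the regions, 6 lower and 2 higher in CA1, where 35.6% of all 15595 genes tested passed the same threshold (2416 higher and 3141 lower in CA1). The median log2 difference over the 8 genes was -0.30, and that over all genes was -0.038. The test was limma with the rat as a block, a threshold of 0.05 on the Benjamini-Hochberg adjusted p, and log2(RPM + 0.1). Levels of different genes are not compared, because reads per gene depend on transcript length.

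**Figure D1:**
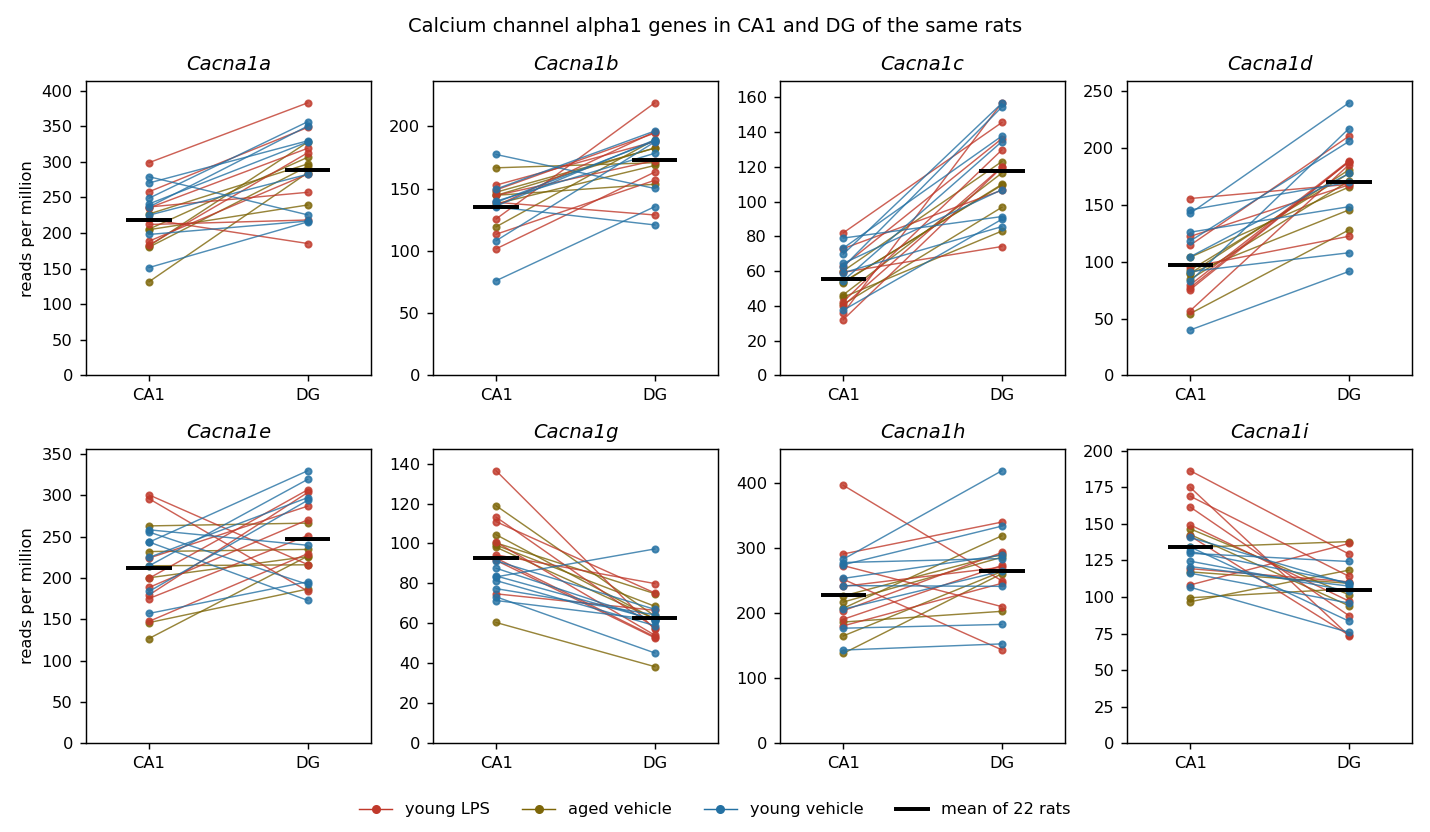
RPM of each alpha1 gene (y axis, from 0) in CA1 and DG; each line joins the libraries of 1 rat, coloured by group, and black bars are means of 22 rats. Lines for Cacna1c and Cacna1d run upward to DG in 22 of 22 rats, while those for Cacna1g run downward in 21 of 22.

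The L-type genes stood lower in CA1. Cacna1c, which encodes the main L-type pore of forebrain neurons, had 32.0 to 82.0 RPM in CA1 (median 56.8) and 74.2 to 157 in DG (median 118). CA1 was below DG in 22 of 22 rats, although the ranges of the regions overlap between rats. The mean was 55.8 ± 14.5 in CA1 and 117 ± 24.7 in DG (SD, n = 22 each), a log2 difference of -1.09 (95% interval -1.28 to -0.90, SE 0.092, limma adjusted p = 4.82e-10). Cacna1d, the L-type pore that opens at more negative voltages, had 40.0 to 156 RPM in CA1 (median 91.9) and 91.4 to 240 in DG (median 174). It too was lower in CA1 in all 22 rats, with log2 differences within a rat from -1.70 to -0.11. The log2 difference was -0.85 (95% interval -1.03 to -0.67, SE 0.088, limma adjusted p = 1.30e-08). With each rat left out in turn the difference stayed between -1.14 and -1.05 for Cacna1c and between -0.89 and -0.81 for Cacna1d.

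The 3 genes of presynaptic and dendritic high-voltage channels were lower in CA1 by smaller amounts. The P/Q-type gene Cacna1a averaged 219 ± 40.6 RPM in CA1 and 289 ± 53.9 in DG (SD, n = 22 each), a log2 difference of -0.42 (SE 0.065, limma adjusted p = 8.43e-06), and was lower in CA1 in 20 rats. The N-type gene Cacna1b averaged 136 ± 22 in CA1 and 173 ± 24.3 in DG (log2 difference -0.35, SE 0.066, limma adjusted p = 1.08e-04), lower in CA1 in 19 rats. The R-type gene Cacna1e averaged 212 ± 47.3 in CA1 and 247 ± 47.8 in DG, lower in CA1 in 17 rats. Its log2 difference of -0.23 (SE 0.089) lay just past the threshold (limma adjusted p = 0.0458). The call for Cacna1e was lost with TMM scaling (adjusted p = 0.0697), with edgeR (0.0795) and without any of 14 single rats, with adjusted p up to 0.0953.

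The T-type genes split. Cacna1g was higher in CA1 in 21 of 22 rats, at 60.5 to 136 RPM (median 92.1), against 38.4 to 97.3 in DG (median 62.0). Young vehicle rat 2410 was the exception. The log2 difference was 0.57 (95% interval 0.44 to 0.70, SE 0.064, limma adjusted p = 4.93e-08). Cacna1i was higher in CA1 in 18 rats, with 134 ± 23.9 RPM in CA1 and 104 ± 18.6 in DG (SD, n = 22 each; log2 difference 0.34, SE 0.075, limma adjusted p = 7.13e-04). Cacna1h, the third T-type gene, went the other way, with 229 ± 58.8 in CA1 and 265 ± 62.6 in DG, lower in CA1 in 18 rats. Its log2 difference was -0.24 (SE 0.076, limma adjusted p = 0.0155), and without the replicate block, which pairs the regions by rat, the adjusted p was 0.0688.

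The region difference was also taken in the 8 young vehicle rats alone. There 4 genes passed (Cacna1c, Cacna1d, Cacna1g and Cacna1i). The share of all genes that passed in this fit is not given here, so the count of 4 has no background. Cacna1a (-0.31, limma adjusted p = 0.0572), Cacna1b (-0.36, 0.0717), Cacna1h (-0.20, 0.142) and Cacna1e (-0.17, 0.460) kept their sign and did not pass in this smaller set. Several marker lists differed between the regions as well. All 5 oligodendrocyte markers (median log2 difference 0.89), all 5 microglial markers (0.34) and all 7 interneuron markers (0.26) were higher in CA1. Of the interneuron markers 6 passed, and all of the oligodendrocyte and microglial markers did. Both oligodendrocyte precursor markers, all 3 endothelial markers tested and 3 of 5 astrocyte markers also passed as higher in CA1. Their part in the region differences of the channel genes was not tested.

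The design next set young LPS rats against young vehicle rats, within each region and on the deposited normalized values. In CA1 no member passed, where 0% of the 14915 genes tested did. At an unadjusted p below 0.05 stood 1024 of all genes, and over all genes edgeR called 0 and DESeq2 called 1, neither with a member among them. The largest changes were those of the T-type genes Cacna1g and Cacna1i, the same pair that was higher in CA1 than in DG. For no member were the groups without overlap, in either region or in any of the 3 group comparisons. Over all genes tested in CA1 the share without overlap was 0.0134% with LPS, 0.235% with age and 0.838% for young LPS against aged vehicle rats, and in DG it was 0.0403%, 0.0738% and 0.443% for the same comparisons, so 0 of 8 is near this background. The log2 changes of the 8 genes in CA1 ran from -0.25 to 0.33 with a median of 0.030, against a median of 0.012 over all genes.

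Cacna1g in CA1 ran from 1162 to 2092 normalized reads in young LPS rats (median 1637) and from 1095 to 1363 in young vehicle rats (median 1290). LPS rats lay above the vehicle median in 7 of 8 cases, and the vehicle values lay close together. Means were 1631 ± 290 in young LPS rats and 1281 ± 88.1 in young vehicle rats (SD, n = 8 each). The log2 change was 0.33 (95% interval 0.11 to 0.56, SE 0.11, limma adjusted p = 0.654). Cacna1i ran from 1681 to 2929 in young LPS rats (median 2528) and from 1822 to 2175 in young vehicle rats (median 1974), with 6 of 8 LPS rats above the vehicle median. Means were 2425 ± 455 in young LPS rats and 1976 ± 106 in young vehicle rats (SD, n = 8 each), a log2 change of 0.27 (95% interval 0.051 to 0.50, SE 0.11, limma adjusted p = 0.654). The coefficient of variation was 17.8% in young LPS rats and 6.88% in young vehicle rats for Cacna1g, and 18.7% in young LPS rats and 5.36% in young vehicle rats for Cacna1i; the difference in spread was not tested. The unadjusted limma p was 0.00536 for Cacna1g and 0.0179 for Cacna1i, and adjustment over all genes removed both.

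The L-type genes varied widely among LPS rats. Cacna1c had 491 to 1332 normalized reads in young LPS rats (median 836) and 690 to 1234 in young vehicle rats (median 975). LPS rats 2403 (491) and 2527 (563) lay below every vehicle rat and LPS rat 2543 (1332) above every one. The log2 change was -0.25 (95% interval -0.59 to 0.094, SE 0.17, limma adjusted p = 0.654). Cacna1d had 985 to 2524 in young LPS rats (median 1413) and 735 to 2197 in young vehicle rats (median 1710), a log2 change of -0.082 (95% interval -0.49 to 0.32, limma adjusted p = 0.888). These intervals leave room for a change of either sign. With the dissection score in the fit, the change was 0.010 for Cacna1c and 0.13 for Cacna1d, and it was 0.22 for Cacna1g and 0.19 for Cacna1i; none passed. The score itself had a median of 3.09 in young LPS rats and 2.61 in young vehicle rats.

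**Figure D2:**
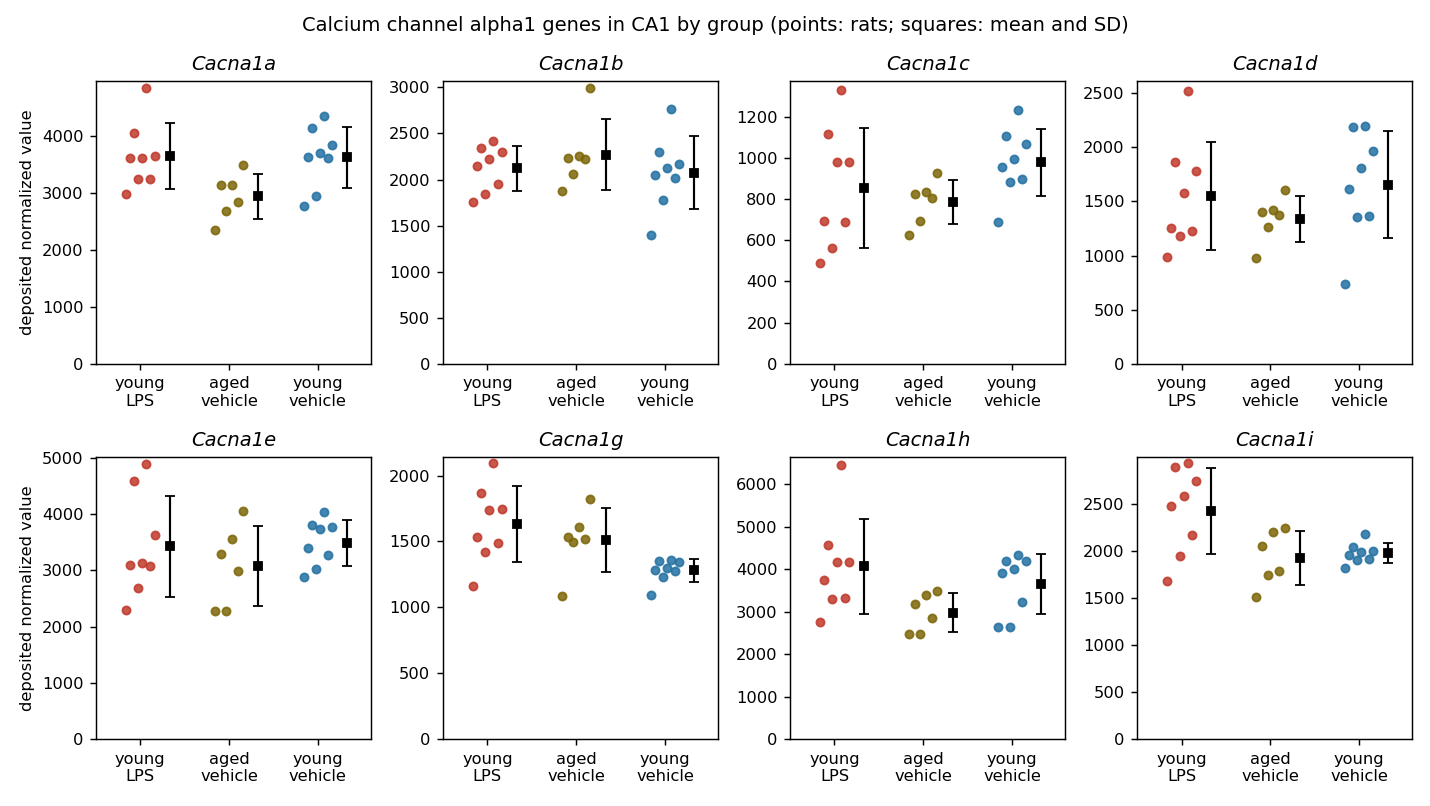
Deposited normalized values of each alpha1 gene in CA1 (y axis, from 0) by group; points are rats, and squares with bars are the mean and SD. Cacna1g and Cacna1i are tightly grouped in young vehicle rats (1095 to 1363 and 1822 to 2175) and spread upward in young LPS rats; all groups overlap.

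The other 4 genes had changes from -0.060 to 0.14 with LPS in CA1. Cacna1a averaged 3661 ± 582 normalized reads in young LPS rats and 3630 ± 536 in young vehicle rats (SD, n = 8 each). Cacna1b averaged 2122 ± 242 in young LPS rats and 2076 ± 395 in young vehicle rats, and Cacna1e 3425 ± 902 in young LPS rats and 3489 ± 407 in young vehicle rats. Cacna1h averaged 4066 ± 1126 in young LPS rats, with rat 2543 at 6447, and 3645 ± 707 in young vehicle rats. None passed (lowest adjusted p = 0.728, for Cacna1h).

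The second comparison, aged vehicle against young vehicle rats, asked for the effect of age. In CA1 6 of the 8 genes had negative changes, with a median log2 change of -0.23, against 0.0027 over all genes. No member passed in limma, edgeR or DESeq2, where limma called 0.0134% of all genes (2 of 14915) and 1882 stood at an unadjusted p below 0.05. The L-type genes, whose currents are known to grow with age in CA1 neurons, had negative and uncalled changes in mRNA. Bulk mRNA is a different measure from the current of a neuron, which was not measured here. Cacna1c ran from 627 to 927 normalized reads in aged rats (median 815) and from 690 to 1234 in young vehicle rats (median 975). All 6 aged rats lay below the young median, while 5 of them lay within the young range. The log2 change was -0.31 (95% interval -0.68 to 0.062, SE 0.18, limma adjusted p = 0.412). Cacna1d ran from 974 to 1603 in aged rats (median 1389) and from 735 to 2197 in young vehicle rats (median 1710), with all 6 aged rats below the young median. Its log2 change was -0.25 (95% interval -0.69 to 0.19, SE 0.21, limma adjusted p = 0.546). With the dissection score in the fit the changes were -0.11 for Cacna1c and -0.086 for Cacna1d; the score had a median of 2.93 in aged rats and 2.61 in young vehicle rats, and all 5 granule cell markers had negative changes with age, none called.

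Cacna1a had the lowest unadjusted p with age. It ran from 2357 to 3496 normalized reads in aged rats (median 2993) and from 2783 to 4354 in young vehicle rats (median 3670). All 6 aged rats lay below the young median. Means were 2945 ± 400 in aged rats (SD, n = 6) and 3630 ± 536 in young vehicle rats (SD, n = 8), a log2 change of -0.30 (95% interval -0.54 to -0.058, SE 0.12, limma adjusted p = 0.393). Cacna1h, the T-type gene with the lower level in CA1 than in DG, averaged 2982 ± 451 in aged rats and 3645 ± 707 in young vehicle rats, with all 6 aged rats below the young median (log2 change -0.28, SE 0.16, limma adjusted p = 0.408). Cacna1g had a positive change, at 1512 ± 241 in aged rats and 1281 ± 88.1 in young vehicle rats, with 5 of 6 aged rats above the young median (log2 change 0.23, SE 0.12, limma adjusted p = 0.396). It passed only when libraries were weighted by how closely their values followed the fitted group means (0.34, limma adjusted p = 0.0290). In that fit 303 of all genes passed. Cacna1e (3073 ± 708 in aged rats and 3489 ± 407 in young vehicle rats), Cacna1i (1924 ± 288 in aged rats and 1976 ± 106 in young vehicle rats) and Cacna1b (2271 ± 381 in aged rats and 2076 ± 395 in young vehicle rats) had adjusted p of 0.492 or more.

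The third comparison set young LPS against aged vehicle rats. In CA1 7 of the 8 genes had positive changes, with a median of 0.16, against 0.022 over all genes. No member passed in limma, where 8.73% of all genes did (521 higher and 781 lower in LPS rats). Cacna1h, Cacna1i and Cacna1a came closest. Cacna1h ran from 2772 to 6447 normalized reads in young LPS rats (median 3962) and from 2468 to 3497 in aged rats (median 3021), with 7 of 8 LPS rats above the aged median. The log2 change was 0.42 (95% interval 0.093 to 0.74, SE 0.16, limma adjusted p = 0.0712). Cacna1i had medians of 2528 in young LPS rats and 1915 in aged rats, with 7 of 8 LPS rats above the aged median (log2 change 0.32, 95% interval 0.084 to 0.56, limma adjusted p = 0.0628). Cacna1a had medians of 3619 in young LPS rats and 2993 in aged rats, also with 7 of 8 above (0.31, 95% interval 0.070 to 0.55, limma adjusted p = 0.0706).

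These adjusted p lie close to the threshold, and the calls moved with the method. DESeq2 on recovered reads called all 3 (adjusted p = 0.0477 for Cacna1a, 0.0371 for Cacna1h and 0.0336 for Cacna1i), and edgeR called 0, with adjusted p from 0.0562 to 0.0742 for these genes. Without LPS rat 2403 Cacna1h passed (0.49, limma adjusted p = 0.0375), and without LPS rat 2547 Cacna1i did (0.40, 0.0424). DESeq2 called 21.9% of all genes here and edgeR 14.4%, against 8.73% with limma; without rat 2403 limma called 17.7% and without rat 2547 1786 genes. The count over all genes was as unsteady, at 2 or fewer in 15 of the 22 fits that leave out 1 rat and at 1411 to 3399 in the other 7. It was 0 without aged rat 2420, 2531 or 2532 or LPS rat 2404, 2408, 2527 or 2717, and 0 with the 2 groups compared alone in the fit. It was 1 or 2 without LPS rat 2543, aged rat 2415 or young vehicle rat 2410, 2526, 2571, 2722, 2728 or 2731. The L-type genes showed no such pattern, with 0.060 for Cacna1c (95% interval -0.31 to 0.43) and 0.17 for Cacna1d (95% interval -0.27 to 0.60). The LPS and age comparisons share the young vehicle rats, so their changes are given side by side and not related to each other.

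**Figure D3:**
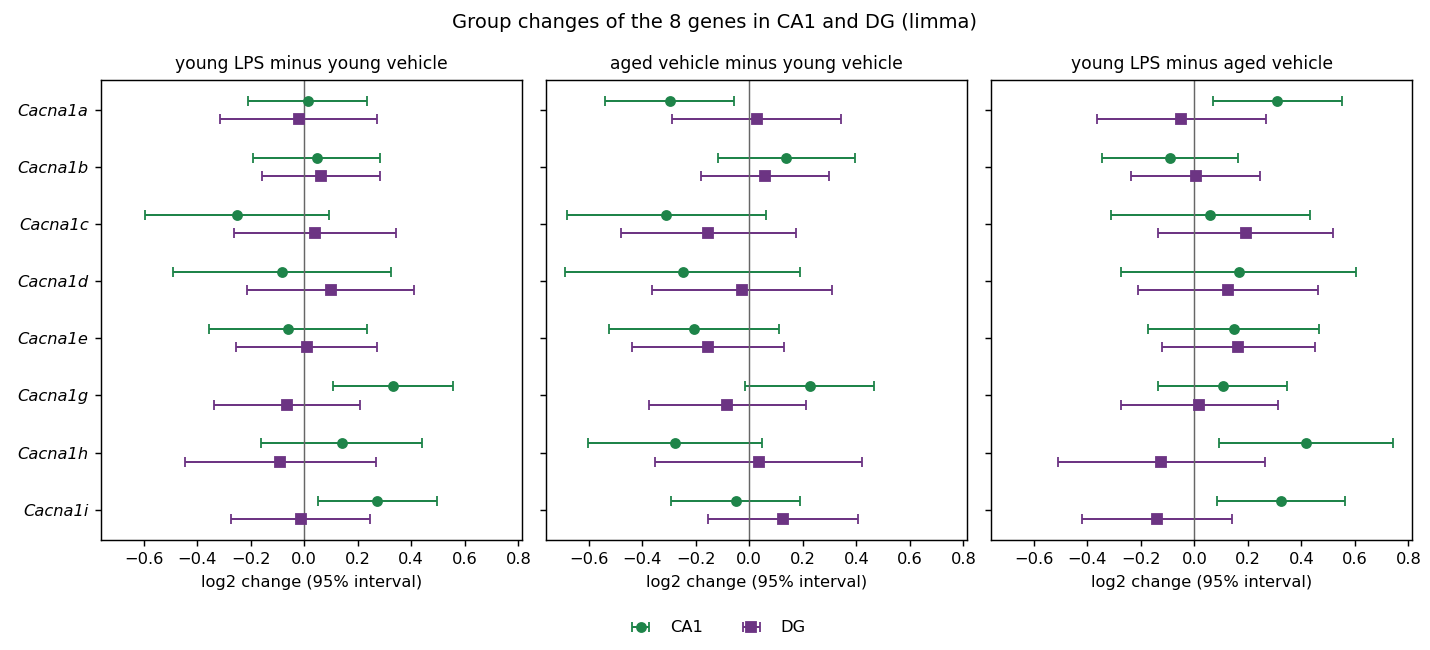
Log2 change of each alpha1 gene (x axis) with its 95% interval from limma, in CA1 (circles) and DG (squares), for the 3 group comparisons. In DG every interval includes 0; in CA1 the intervals that do not are those of Cacna1g and Cacna1i with LPS, Cacna1a with age, and Cacna1a, Cacna1h and Cacna1i for young LPS minus aged vehicle.

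In DG no member separated the 3 groups. None passed in any comparison, and limma called 0.0134% of all 14904 genes in each (2 genes). At an unadjusted p below 0.05 stood 1122 genes with LPS, 446 with age and 1356 for LPS against aged rats, and edgeR and DESeq2 called 0 members in all of them. The changes of the members ran from -0.089 to 0.099 with LPS, from -0.15 to 0.13 with age, and from -0.14 to 0.19 for young LPS minus aged vehicle. Cacna1c in DG had 1129 to 2510 normalized reads in young LPS rats (median 1938), 1320 to 1984 in aged rats (median 1742) and 1407 to 2478 in young vehicle rats (median 1902). Its log2 change was 0.039 with LPS (95% interval -0.26 to 0.34, limma adjusted p = 0.970) and -0.15 with age (95% interval -0.48 to 0.17, limma adjusted p = 1.00). Cacna1d had medians of 2887 in young LPS rats, 2694 in aged rats and 2816 in young vehicle rats, with changes of 0.099 with LPS (95% interval -0.21 to 0.41) and -0.027 with age (95% interval -0.36 to 0.31). For young LPS minus aged vehicle the change was 0.19 for Cacna1c (95% interval -0.14 to 0.52) and 0.13 for Cacna1d (95% interval -0.21 to 0.46).

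The remaining 6 genes also overlapped between groups in DG. Cacna1a averaged 4590 ± 1179 normalized reads in young LPS rats, 4627 ± 488 in aged rats and 4604 ± 953 in young vehicle rats. Cacna1b averaged 2820 ± 524 in young LPS rats, 2774 ± 223 in aged rats and 2689 ± 421 in young vehicle rats, and Cacna1e averaged 4059 ± 741 in young LPS rats, 3587 ± 443 in aged rats and 4063 ± 926 in young vehicle rats. Of the T-type genes, Cacna1g averaged 988 ± 199 in young LPS rats, 979 ± 198 in aged rats and 1032 ± 210 in young vehicle rats. Cacna1h averaged 4026 ± 959 in young LPS rats, 4304 ± 655 in aged rats and 4322 ± 1282 in young vehicle rats. Cacna1i averaged 1635 ± 417 in young LPS rats, 1763 ± 246 in aged rats and 1615 ± 224 in young vehicle rats. LPS rat 2408 was the lowest of its group for 7 of the 8 genes in DG. Young vehicle rat 2572 and aged rats 2412 and 2532 were among the 3 lowest of their groups for all 8. LPS rat 2573 and young vehicle rat 2526 were among the 3 lowest of theirs for 7.

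**Figure D4:**
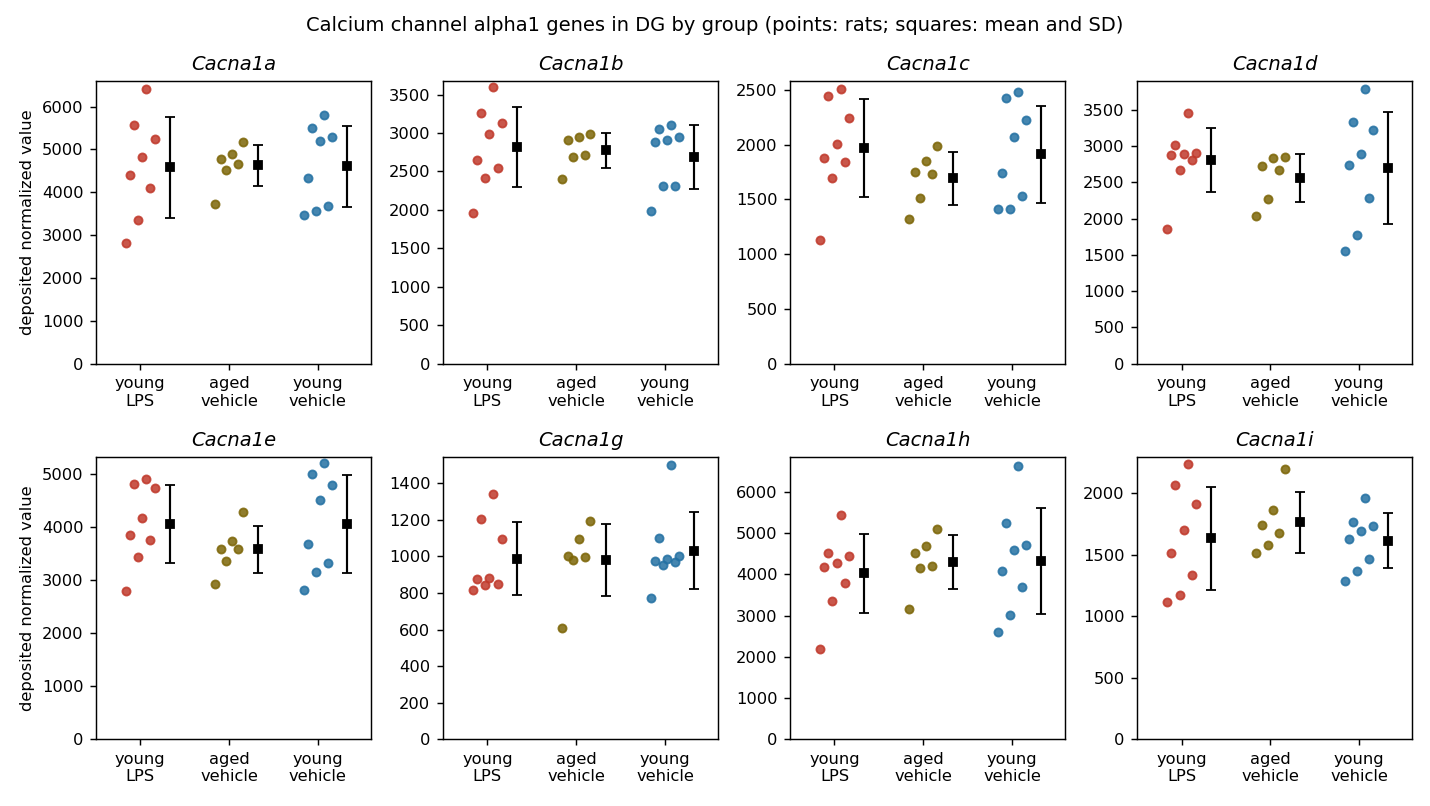
Deposited normalized values of each alpha1 gene in DG (y axis, from 0) by group; points are rats, and squares with bars are the mean and SD. All groups overlap for all 8 genes, and the group means of Cacna1a lie between 4590 and 4627.

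Whether the group changes differed between the regions was tested directly, as the change in CA1 minus that in DG with the rat as a block. For LPS the largest difference was that of Cacna1g, at 0.40 (95% interval 0.068 to 0.72, SE 0.16, limma adjusted p = 0.346), and 0% of 14637 genes passed, with 1967 at an unadjusted p below 0.05. For age those with the lowest p were Cacna1a (-0.33, SE 0.16, limma adjusted p = 0.727) and Cacna1g (0.31, SE 0.17, limma adjusted p = 0.727), and again 0% of all genes passed, with 808 at an unadjusted p below 0.05. For young LPS minus aged vehicle 12.6% of all genes passed and 0 of the 8 members. The count was 0 genes without LPS rat 2404, 2408 or 2543 or aged rat 2420 or 2532, 320 without aged rat 2415 and 991 to 2794 without any other rat, against 1844 with all rats. Cacna1h came nearest, at 0.54 (95% interval 0.15 to 0.93, SE 0.19, limma adjusted p = 0.0563), followed by Cacna1i (0.46, SE 0.20, limma adjusted p = 0.0991) and Cacna1a (0.36, SE 0.16, limma adjusted p = 0.121). In the same comparison all 6 CA1 pyramidal markers had positive differences with a median of 1.04, and for age all 6 had negative ones with a median of -0.96, none called; their part in the members' differences was not tested. Cacna1h passed without LPS rat 2403, 2547 or 2717 or aged rat 2412, with 0.58 to 0.62 and adjusted p from 0.0378 to 0.0442, and Cacna1i passed without LPS rat 2547 (0.61, adjusted p = 0.0238). Without the replicate block no member passed (adjusted p = 0.123 for Cacna1h, 0.0758 for Cacna1i and 0.196 for Cacna1a).

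Within CA1, the L-type genes followed the dissection score from library to library. After each group's mean was subtracted, Cacna1c fell as the score rose over the 22 CA1 libraries (Pearson's r = -0.849, permutation p = 1e-05, the smallest that 100000 resamples within groups can give, adjusted p = 8e-05 over the 8 genes; Spearman's rho = -0.749, permutation p = 0.00045). Without the 2 libraries farthest from the median score, rats 2403 and 2527, r was -0.753. Cacna1d fell as well (r = -0.567, permutation p = 0.00456, adjusted p = 0.0182; rho = -0.693, permutation p = 0.0008; r = -0.611 without those libraries). Cacna1g rose with the score (r = 0.609, permutation p = 0.0136, adjusted p = 0.0363; rho = 0.607, permutation p = 0.0088; r = 0.497 without them). Cacna1c and Cacna1g had their lowest (491) and highest (2092) value in the same CA1 library, that with the highest score, while the lowest Cacna1d value (735) was in another library, that of young vehicle rat 2572. The lists that make up the score did not contribute alike. For Cacna1c, r was 0.842 with granule cell markers and -0.322 with CA1 pyramidal markers. For Cacna1d these values were 0.503 and -0.407, and for Cacna1g they were -0.621 and 0.172. Other marker lists moved with these genes too. Over the same 22 libraries, r with the mean level of oligodendrocyte markers was -0.783 for Cacna1c. For Cacna1d r was -0.768 with microglial, -0.726 with oligodendrocyte, -0.670 with astrocyte, -0.670 with endothelial and -0.605 with mural cell markers. For Cacna1g r was 0.776 with oligodendrocyte precursor markers. Genes without a call against the score had large r too: -0.728 with endothelial markers for Cacna1b and -0.609 with oligodendrocyte markers for Cacna1a. The part of any of these cell types in the levels of the channel genes was not tested. The relations of Cacna1a, Cacna1b, Cacna1e, Cacna1h and Cacna1i to the score did not pass, with r from -0.421 to 0.473. Their adjusted permutation p was 0.164 or more. How many of all genes tested in CA1 would pass against the score was not computed. The calls of Cacna1c, Cacna1d and Cacna1g therefore have no background. In DG r with the score lay between -0.572 (Cacna1b) and 0.104 (Cacna1g), with -0.438 for Cacna1c and -0.299 for Cacna1d, given here as a description over 22 libraries. The animal numbers begin with 24, 25 or 27, which the labels do not explain. Aged rats have numbers of the 24 and 25 series only, so series and age group cannot be fully told apart. Within the 8 rats of the 24 series r was -0.833 for Cacna1c, -0.394 for Cacna1d and 0.919 for Cacna1g. Within the 10 rats of the 25 series it was -0.904 for Cacna1c, -0.714 for Cacna1d and 0.511 for Cacna1g, and the 27 series holds 4 rats, too few for a value.

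**Figure D5:**
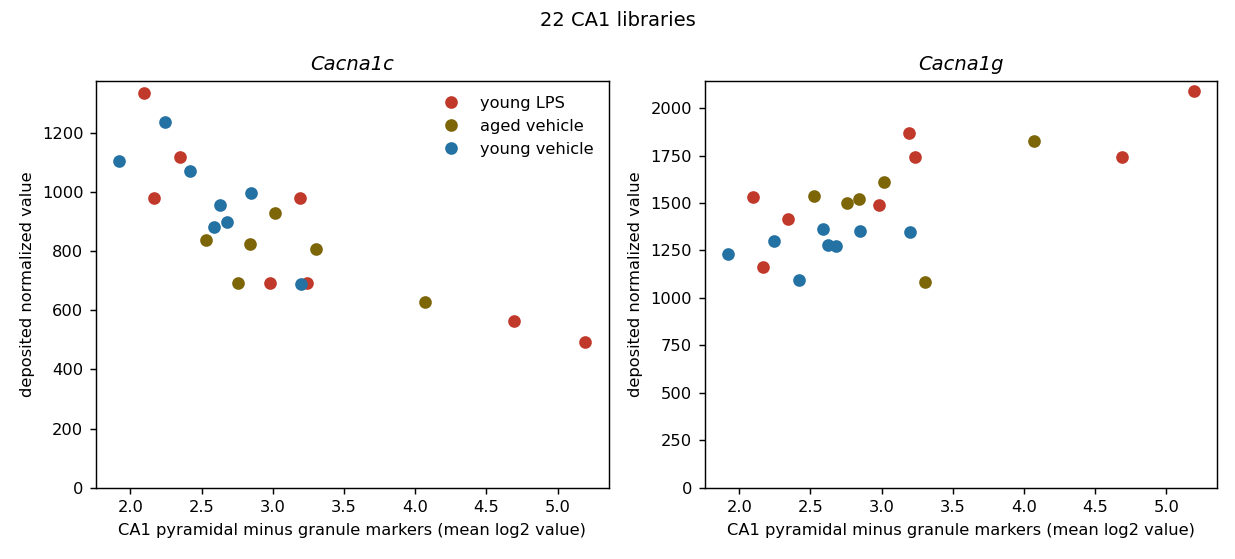
Deposited normalized value of Cacna1c and Cacna1g (y axes, from 0) against the dissection score (x axis, mean log2 value of CA1 pyramidal markers minus that of granule cell markers) in 22 CA1 libraries, coloured by group. Cacna1c is at 491 in the library with the highest score (5.20) and at 1332 in 1 of the libraries near the low end (2.10); Cacna1g shows the opposite slope.

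The genes moved together from rat to rat in DG, except in pairs with Cacna1g, none of which passed there. After group means were subtracted, all 28 pairs correlated positively over the 22 DG libraries (median r = 0.671), and 20 of the 21 pairs without Cacna1g passed a permutation test adjusted over the 56 pairs of both regions. None of the 7 pairs with Cacna1g in DG passed (r from 0.135 to 0.462). With all genes tested, the median r of a member was between -0.023 and -0.0035 in DG. A median does not show how often large r occur. The share of all gene pairs that would pass was not computed in either region, so the counts of pairs have no background. Over the same libraries the 7 genes other than Cacna1g ran against microglial markers (r from -0.712 to -0.370) and endothelial markers (-0.844 to -0.286) and with granule cell markers (0.311 to 0.734), while Cacna1g had r of -0.069, -0.13 and 0.025 with these lists. The 7 genes also ran against oligodendrocyte (-0.594 to -0.161), mural cell (-0.742 to -0.235), meningeal fibroblast (-0.744 to -0.239) and interneuron markers (-0.589 to -0.098). For Cacna1g these r were 0.024, -0.24, -0.18 and 0.40. Their part in the shared movement was not tested. In CA1 10 of 28 pairs passed, all positive. The L-type pair was among them in both regions (CA1 r = 0.772, permutation p = 3e-05, adjusted p = 0.000436, rho = 0.818, permutation p = 3e-05; DG r = 0.816, permutation p = 4e-05, adjusted p = 0.000436, rho = 0.764, permutation p = 0.00026). Without the 2 libraries farthest from the median of Cacna1c, r was 0.745 in CA1 and 0.732 in DG. Cacna1a and Cacna1h also moved together in CA1 (r = 0.803, permutation p = 7e-05, adjusted p = 0.000436, rho = 0.747, permutation p = 0.00032, r = 0.697 without the 2 farthest libraries). Of the pairs with Cacna1g in CA1, that with Cacna1i passed (r = 0.632, permutation p = 0.0126, adjusted p = 0.0294, rho = 0.705, permutation p = 0.00276, r = 0.50 without the 2 farthest libraries).

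The genes most like each member over the 22 libraries of a region, by Pearson's r of group-centred log2 values among all genes tested, were none of the other members. For the L-type genes they were Svep1 (r = 0.92) and a gene listed by its clone identifier (0.94) in CA1 and Trim9 (0.92) and Madd (0.91) in DG for Cacna1c, and Trrap (0.93) and Ankrd27 (0.92) in CA1 and Unc79 (0.95) and Dnah9 (0.94) in DG for Cacna1d. For Cacna1a they were Dopey2 (0.90) and Nav2 (0.86) in CA1 and Mpp3 (0.93) and Adam11 (0.92) in DG. For Cacna1b they were Qtrt2 (0.92) and Rapgef2 (0.91) in CA1 and Tanc1 (0.88) and Madd (0.87) in DG. For Cacna1e they were Huwe1 (0.89) and the sodium channel gene Scn8a (0.87) in CA1 and Tnik (0.95) and Tanc2 (0.91) in DG. Among the T-type genes, Cacna1g was most like Ank1 (0.85) and Dip2a (0.84) in CA1 and Pitpnm3 (0.86) and Trpm2 (0.83) in DG. Cacna1h was most like Acp6 (0.88) and Brpf1 (0.88) in CA1 and Kdm4b (0.95) and Fbxo10 (0.94) in DG, and Cacna1i like Plxna1 (0.79) and the calcium release channel gene Itpr2 (0.79) in CA1 and Pcnx3 (0.96) and Ncdn (0.93) in DG. These pairs share libraries and were picked as the highest over all genes tested, so no p is given.

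Genes that work with these channels were followed in lists. Of the 8 auxiliary subunit genes 7 were tested, and in CA1 against DG 1 was higher and 3 were lower, with differences from -0.31 to 0.74. Cacna2d2 was higher in CA1 (log2 difference 0.74, limma adjusted p = 2.81e-07), and Cacna2d3 (-0.31, 1.73e-04), Cacnb3 (-0.27, 0.00123) and Cacnb4 (-0.29, 0.0221) were lower. Of the other alpha1 genes, Cacna1s, the skeletal muscle pore, was lower in CA1 (-1.09, limma adjusted p = 6.81e-04), and Cacna1f stayed below the filter in both regions. Of 7 gamma subunit and AMPA receptor auxiliary genes tested 3 were higher and 2 lower, among them Cacng5 (0.86), Cacng2 (-0.73) and Cacng6 (-0.47). Of 16 channel regulators tested 6 were higher and 5 lower in CA1. They included Stac, an adaptor of L-type channels (2.10, limma adjusted p = 1.17e-08), and the active zone genes Rimbp2 (-0.95, 2.40e-10) and Rims1 (-0.55, 1.25e-05), which tether presynaptic calcium channels.

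Downstream of calcium entry, the same comparison of CA1 with DG gave calls in both directions. Of 6 calcium-activated potassium channel genes 1 was higher (Kcnn2, an SK channel, 0.60) and 2 were lower (Kcnmb4, -0.43, and Kcnma1, -0.21). Of 9 genes of calcium-dependent enzymes tested 1 was higher and 5 were lower, led by the kinase genes Camkk1 (-0.90), Camkk2 (-0.64) and Camk2b (-0.50). Of 8 calcium extrusion genes 2 were higher and 4 lower, led by the exchanger gene Slc8a2 (-0.79) and the calcium pump genes Atp2b1 (0.54) and Atp2b3 (-0.51). These differences are to be read beside the 35.6% of all genes that passed.

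Between the groups few genes of these lists passed. With LPS or with age no gene of any list passed in CA1 or in DG, and none passed for young LPS minus aged vehicle in DG. For young LPS minus aged vehicle in CA1, 4 passed, all higher in LPS rats: the beta subunit gene Cacnb1 (log2 change 0.52), the AMPA receptor auxiliary genes Cacng8 (0.72) and Cacng7 (0.48) and the kinase gene Camk2b (0.58), each at a limma adjusted p of 0.0490, where 8.73% of all genes passed. All 4 calls were lost without any 1 of the 7 rats that leave no gene called in this comparison, and with the 2 groups compared alone in the fit. In 8 further fits that leave out 1 rat only 1 or 2 of all genes passed, so the 4 could not all pass there. For the difference of that comparison between the regions, 7 passed: Cacng8 (0.96), Cacng3 (0.55), Cacnb1 (0.57), Cbarp, a negative regulator of channel activity (0.68), the small GTPase gene Rrad (1.28), Camk2b (0.59) and Rims2 (-0.58). Their adjusted p ran from 0.0252 to 0.04998, in a comparison in which 12.6% of all genes passed, and all 7 calls were lost without LPS rat 2404, 2408 or 2543 or aged rat 2420 or 2532.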

How the data were processed

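Per region the authors deposited 1 table of read counts they had normalized, a signal that is never negative. Per the submitters' processing notes, the tools were STAR, Partek and DESeq2, without versions, and the build was rn6; for annotation, read filters and strand, nothing is given in the sources used here. Within a library the values are whole multiples of the value of 1 read, and dividing by it gave whole reads (tolerance 0.1) for 99.75% of CA1 values and 99.98% of DG values. Counting error covers read sampling only.

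Genes that reached a value of 10 in 6 or more libraries were tested, 14915 in CA1 and 14904 in DG, and all 8 members passed this filter in both regions. The main test was limma 3.58.1 (R 4.3.3; trend and robust options) on log2(value + 1), which understates changes of low genes, with 3 groups in 1 fit per region and Benjamini-Hochberg adjustment over all genes. Regions were compared on log2(RPM + 0.1) over shared rows, for genes with 0.5 RPM or more in 6 or more libraries. The rat was a block there, because both regions came from 1 hippocampus and each title names its animal. Once group means were removed, CA1 and DG of a rat correlated with a median r of 0.051, above 0.1 in 8 of 22 rats, so the pairing rests on the labels. Correlations used SciPy 1.17.1 and NumPy 2.4.6. Alternatives were other pseudocounts (5, 0.25), filters, TMM scaling, weights per library, the leading digits of the animal numbers as a factor (number series; the labels do not give a meaning), the dissection score, edgeR 4.0.16, DESeq2 1.42.0 and leaving out rats. The tests were tried on simulated counts.

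All 8 members are named in each comparison. Log2 changes are given singly for Cacna1c and Cacna1d, for any member with an unadjusted p below 0.1 and for all 8 between regions, and otherwise as group means and ranges; this choice was made after the values were seen. Of companion lists, every gene past the threshold is named, or the 3 with the smallest p where more than 3 passed, with auxiliary subunits in full. The members and lists were chosen with earlier results of these data known. Promoter coordinates are those of GRCr8, not of the files' build.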

Additional observations from a re-analysis of the deposited data

Results flagged for a closer look

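In 3 of the 48 sets of 1 gene, region and group, the highest or lowest rat stood apart from the others by more than Dixon's 95% critical value; chance gives about 2.4. Cacna1b in CA1 of aged rat 2532 was 2990 normalized reads, where the other aged rats lay between 1871 and 2253. Cacna1g in DG of the same rat was 609.5, where the others lay between 981.5 and 1192. Cacna1g in DG of young vehicle rat 2410 was 1500, where the others lay between 770.1 and 1101; this rat was also the one whose Cacna1g RPM was not higher in CA1. The dissection score in DG was 0.27 in rat 2532 and 0.45 in rat 2410, the highest of their groups.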

How the results depend on the processing

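All 8 region differences kept their sign under every alternative run. With each rat left out in turn, 7 or 8 members were called, without the replicate block 7, with edgeR 7, and in young vehicle rats alone 4. The shares of all genes called in these fits are not given here, so the counts have no background. Without rats 2526, 2572 and 2532 together, a choice added after seeing the data for this comparison, Cacna1e was lost (-0.21, adjusted p = 0.0701). The call of Cacna1e was also lost on leaving out LPS rat 2403, 2404, 2527, 2543, 2547 or 2717, aged rat 2411, 2415 or 2532, or young vehicle rat 2523, 2572, 2722, 2728 or 2731. For aged minus young vehicle in CA1 library weights gave 1 called member (Cacna1g). For young LPS minus aged vehicle in CA1 library weights gave 1 (Cacna1h; 23.4% of all genes called), the number series 1 (Cacna1i; 19.5%), DESeq2 3 (21.9%) and leaving out a rat 0 to 1 (0% to 22.8%). For its difference between regions the number series gave 2 (Cacna1a and Cacna1h; 18.3% of all genes) and leaving out a rat 0 to 2. Without the replicate block the counts for the differences between regions were 0, as with it.

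Of 80 member changes, 34 changed sign under at least 1 alternative. None of those had passed, and none exceeded 0.25 on the log2 scale. Among changes given singly these were the L-type genes. For LPS in CA1 Cacna1d was 0.0028 with the number series and 0.13 with the dissection score, and Cacna1c 0.010 with the score; leaving out a rat, Cacna1d ran from -0.24 to 0.0022. For LPS in DG Cacna1c was -0.15 and Cacna1d -0.058 with library weights, and -0.076 and -0.12 without rats 2526, 2572 and 2532; leaving out a rat they ran from -0.019 to 0.15 and from -0.0061 to 0.18. For age in DG Cacna1c was 0.095 and Cacna1d 0.12 with the number series, Cacna1d was 0.040 with the score, and it ran from -0.13 to 0.051 leaving out a rat. For young LPS minus aged vehicle in CA1, Cacna1c ran from -0.042 to 0.16 leaving out a rat. The causes were not tested.

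With 6 to 8 rats a group, 95% intervals of single changes were 0.44 to 0.88 wide in CA1 on the log2 scale.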
